A study of Mus musculus with 6 samples.

Results

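Genes of the small RNA and transposon silencing machinery were examined in mouse oocytes at metaphase II that had been matured in culture with or without metformin. The set holds 31 of the 55487 genes in the count table, chosen by name as known components of the PIWI-interacting RNA (piRNA) pathway (20 genes, here the piRNA arm) or of the microRNA and small interfering RNA pathways (11 genes, here the miRNA and siRNA arm). All 31 were found by matching gene identifiers to GENCODE M21 symbols. Metformin is a biguanide drug used against type 2 diabetes. There were 3 metformin libraries and 3 control libraries, the controls having been cultured without the drug. In both groups, mice were primed with 10 IU of the gonadotropin PMSG, and 46 to 48 h later full-sized germinal-vesicle oocytes were taken from antral follicles. Their cumulus cells were pipetted off, and the oocytes spent 16 h in culture to reach metaphase II. The protocol lists metformin at 10, 20 and 50 μM. The labels do not say which of these doses the sequenced oocytes received, how many oocytes made up a library, or whether replicates came from separate animals, so the p-values reflect only sample-to-sample spread, part of which may be technical. The series title names aged mice, while the sample labels give neither age nor strain.

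In the mouse germline, piRNAs are small RNAs bound by PIWI proteins that recognise transposon transcripts. Long single-stranded precursors are cut and trimmed at the mitochondrial surface, and Tudor-domain proteins and RNA helicases gather the PIWI proteins in granules called nuage. MicroRNAs are cut out of hairpin transcripts by the Microprocessor (DROSHA and DGCR8), exported by exportin 5, cut again by DICER and loaded onto Argonaute proteins. Mouse oocytes also make endogenous small interfering RNAs from double-stranded transcripts with an oocyte-specific form of DICER, which a transposon-derived promoter inside Dicer1 drives. These small interfering RNAs repress transposons and some genes, and loss of DICER or AGO2 in mouse oocytes disturbs meiotic maturation. Loss of several piRNA factors sterilises male mice and spares female fertility, and microRNA activity is low in mouse oocytes.

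The libraries held 9914600, 10177033 and 10588292 counted reads with metformin, against 9289433, 8622281 and 10113655 in controls. The 8 oocyte markers summed to 16180 to 16940 CPM (read counts divided by TMM-scaled library totals) in metformin libraries and 15960 to 17650 CPM in controls. The 10 cumulus and granulosa markers summed to 38.2 to 49.5 CPM with metformin and 37.0 to 42.8 CPM in controls, and 4 of the 10 had 0 counts in every library. Cyp19a1 alone gave 37.0 to 48.0 CPM of this with metformin and 36.0 to 40.3 CPM in controls, and the other 9 summed to 1.24 to 2.46 CPM with metformin and 1.02 to 3.51 CPM in controls. The 8 stroma and endothelium markers summed to 31.0 to 42.9 CPM with metformin and 34.9 to 40.8 CPM in controls, of which all but Pecam1 and Kdr gave 1.57 to 2.28 CPM with metformin and 1.47 to 8.73 CPM in controls. The 8 blood markers summed to 1.38 to 2.28 CPM with metformin and 1.70 to 33.9 CPM in controls, the highest value being control replicate 1.

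The piRNA arm was led by Asz1, Ddx4 and Tdrd12, and the miRNA and siRNA arm by Dicer1. Levels of different genes were compared as deposited FPKM, in which read counts are divided by a gene length and library size. The cDNA was primed on poly(A) tails, so the order of levels can also depend on the tails. Neither tail length nor protein was measured. The lengths that FPKM implies were 1.02 to 1.85 times the GENCODE exon unions in 13 members with many reads. They were thus longer than any GENCODE transcript of these genes, and unevenly so, and close places in the order can depend on the length used. The mean and range below are over all 6 libraries. Of the 31 genes, 6 averaged at least 10 FPKM, 14 averaged at least 1 FPKM and 17 averaged under 1 FPKM. Asz1 (chr6:18050964-18109061, minus strand, GENCODE M21 on GRCm38, the assembly also called mm10), whose product is a mitochondrial scaffold of piRNA production, had the highest level at 69.3 FPKM (58.3 to 80.3). Ddx4, the germ cell RNA helicase also known as Vasa, followed at 42.3 FPKM (32.3 to 49.6) and Tdrd12, a Tudor-domain helicase needed for secondary piRNAs in mouse testis, at 33.05 FPKM (26.8 to 41.5). Dicer1 (chr12:104687742-104751952, minus strand) came next at 23.4 FPKM (15.2 to 27.7). Gtsf1, a small zinc-finger cofactor of PIWI cleavage, stood beside it at 23.3 FPKM (17.9 to 27.6), and Tdrd1, a nuage scaffold that binds PIWI proteins, at 16.5 FPKM (9.86 to 22.7). By TPM computed on GENCODE exon unions, Gtsf1 averaged 90.1 and stood above Dicer1 at 64.8, near Tdrd12 at 93.35. Asz1 was at or above 95.05% of the 12793 genes tested, Dicer1 at or above 87.06% and Tdrd1 at or above 83.1%. Of the 30 pairs of neighbours in the order by FPKM, 3 had ranges that did not overlap, namely Asz1 over Ddx4, Tdrd1 over Mael, and Piwil1 over Drosha. All other neighbours overlapped.

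**Figure D1:**
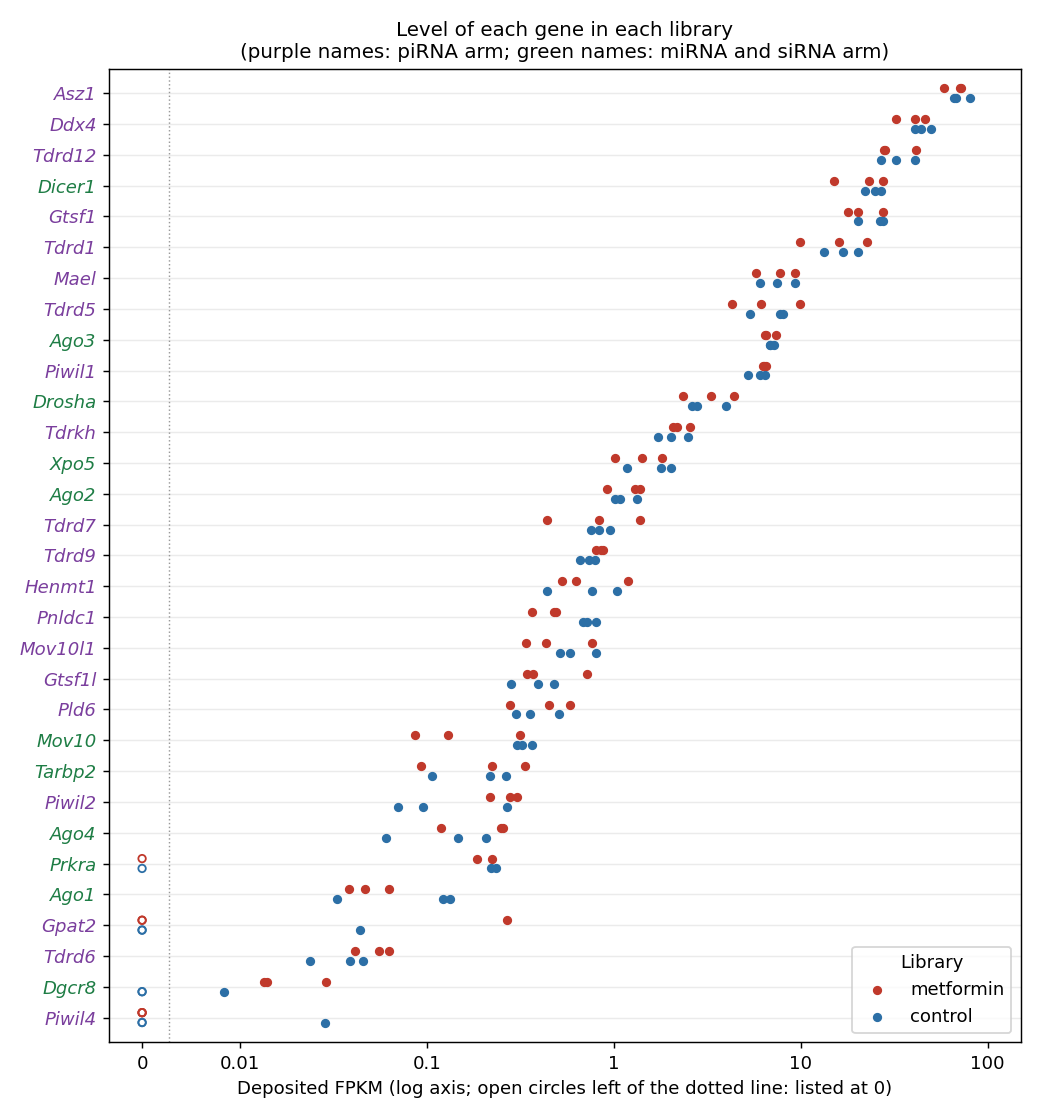
Deposited FPKM of the 31 genes in each metformin library (red) and control library (blue), on a log axis, ordered by the mean of the 6 libraries; purple names are the piRNA arm, green names the miRNA and siRNA arm, and open circles mark a value listed at 0. Levels run from 69.3 FPKM for Asz1 to 0.00478 FPKM for Piwil4. Among the 24 tested members, the groups are apart for Pnldc1 by FPKM and by CPM, and for Tdrd9 by FPKM only. By CPM, 5.63% of all genes tested are apart, and the share by FPKM was not computed.

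No member of the set passed the test for a difference between metformin and control oocytes. By edgeR's quasi-likelihood test with Benjamini-Hochberg adjustment over 12793 genes, 5 genes passed an adjusted p of 0.05 in the whole table, which is 0.0391%. Of the 31 members, 24 had enough counts to be tested (16 of the piRNA arm and 8 of the miRNA and siRNA arm), and 0 of the 24 passed, all with an adjusted p of 1.00. DESeq2 and limma-voom also called 0 of them. At an unadjusted p under 0.05, edgeR passed 1 member (Pnldc1), where it passed 1.50% of all genes. DESeq2 passed 0 members and 1.06% of all genes, and limma-voom 3 members (Pnldc1, Mov10 and Piwil2) and 1.83% of all genes. By CPM, metformin libraries did not overlap control libraries for 1 of the 24 tested members, again Pnldc1, against 5.63% of all genes tested. The fitted value was higher with metformin for 12 members and lower for 12. Their median log2 fold change was -0.01, beside 0.01 for all genes tested, and the median standard error (SE) was 0.237 for the members and 0.239 for all genes tested. These are bulk libraries, in which fewer cells carrying a transcript and less of it per cell cannot be told apart. The values are scaled to library totals, so a change in RNA per oocyte shared by all genes would not show.

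How far the test could see differed between members. For 17 of the 24 tested members, the 95% interval of the log2 fold change lay within a 2-fold difference either way, and for 7 it reached past that. The 14 members that averaged at least 1 FPKM had log2 fold changes between -0.23 (Xpo5) and 0.14 (Tdrkh). The widest differences were in genes with few reads, Mov10 at -0.90 and Piwil2 at 0.92, which are described with their families. Leaving out any library, control replicate 1 with its blood markers included, also gave 0 members called.

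**Figure D2:**
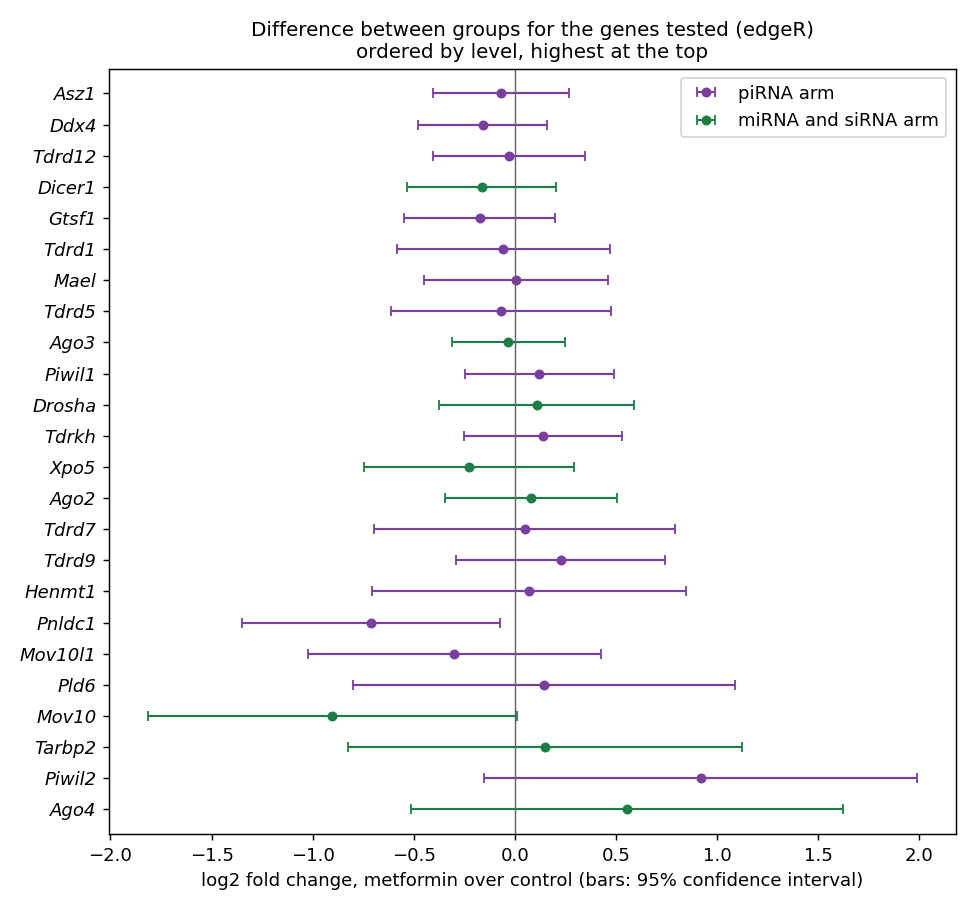
Log2 fold change (metformin over control) of the 24 tested members from the edgeR fit, with bars for the 95% interval; purple points are the piRNA arm and green points the miRNA and siRNA arm. Only the interval of Pnldc1 (-1.35 to -0.08) stays on one side of 0, before adjustment, and the narrowest is that of Ago3 (-0.31 to 0.25).

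Among the PIWI proteins, which bind the piRNAs, Piwil1 gave nearly all the transcript. Its share of the FPKM of Piwil1, Piwil2 and Piwil4 was 95.1% to 98.5% over the 6 libraries. Piwil1, which binds pachytene piRNAs in mouse testis, had 30.1, 32.3 and 33.8 CPM in metformin oocytes, against 29.4, 25.3 and 33.7 CPM in controls. The groups overlapped through control replicate 3, and the log2 fold change was 0.12 (SE 0.168). Piwil2, the slicing PIWI protein of fetal male germ cells, had 17, 16 and 13 reads in metformin oocytes, against 5, 13 and 4 in controls. Control replicate 2 reached the lowest metformin count, while the other controls lay below. Its log2 fold change of 0.92 (SE 0.489) had an interval from -0.15 to 1.99 and an unadjusted p of 0.0857 by edgeR. That value was 1.66 without control replicate 2, and it was 0.60 to 1.66 over all libraries left out in turn. Piwil4, which carries piRNAs into the nucleus of fetal male germ cells, had 0, 0 and 0 reads with metformin, against 0, 0 and 2 in controls. It was therefore at or under the floor of 3 reads everywhere, which corresponds to 0.283 to 0.348 CPM in these libraries, and was not tested.

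Genes for nuage proteins held 3 of the 6 members with the most abundant transcripts. Ddx4 had 144, 173 and 131 CPM in metformin oocytes, against 181, 160 and 159 CPM in controls. Metformin replicate 2 lay among the controls and the other metformin libraries below them, with a log2 fold change of -0.16 (SE 0.145, interval -0.48 to 0.16). Tdrd12 had 208, 151 and 162 CPM in metformin oocytes, against 169, 213 and 149 CPM in controls, and the groups spanned almost the same range. Tdrd1 had 124, 93.2 and 61.9 CPM in metformin oocytes, against 95.3, 114 and 81.2 CPM in controls. Both its highest and its lowest value were metformin libraries, and its log2 fold change was -0.06 (SE 0.236).

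The remaining nuage genes were lower in level. Mael, a protein of nuage needed for transposon silencing in mouse testis, averaged 7.615 FPKM over the 6 libraries and had a log2 fold change of 0.01 (SE 0.207). Tdrd5, a Tudor protein of piRNA processing in mouse testis, averaged 6.91 FPKM with a log2 fold change of -0.07 (SE 0.245). Tdrd7, also found in the chromatoid body of mouse spermatids, averaged 0.868 FPKM. Its counts of 65, 40 and 22 in metformin oocytes enclosed the 42, 34 and 36 of controls. Tdrd9, a helicase that silences transposons in mouse testis, averaged 0.788 FPKM. It had 4.661, 5.403 and 5.731 CPM in metformin oocytes, against 3.995, 4.749 and 4.752 CPM in controls. Metformin replicate 1 lay just below the highest controls by CPM and just above them by FPKM, and the log2 fold change was 0.23 (SE 0.237). Tdrd6, a chromatoid body protein, had 8, 11 and 13 reads in metformin oocytes, against 7, 4 and 9 in controls, and was too low to be tested.

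Genes for piRNA processing ran from the most abundant member to genes near the detection floor. Asz1 had 232, 303.5 and 325.9 CPM in metformin oocytes, against 331, 273 and 299 CPM in controls. Metformin replicate 1 was the lowest library and control replicate 1 the highest, with a log2 fold change of -0.07 (SE 0.154, interval -0.40 to 0.27). Gtsf1 had 60.7, 47.2 and 45.2 CPM in metformin oocytes, against 62.6, 60.5 and 49.6 CPM in controls. The groups overlapped through metformin replicate 1, and the log2 fold change was -0.17 (SE 0.171). Its paralog Gtsf1l had 3, 6 and 3 reads in metformin oocytes, against 3, 2 and 4 in controls, at or under the floor of 3 reads in 4 of the 6 libraries. Tdrkh, which brings PIWI proteins to the mitochondrial surface, had 27.6, 23.5 and 26.9 CPM in metformin oocytes, against 27.8, 22.5 and 20.6 CPM in controls. These groups overlapped, and 36.7% of the exon bases of Tdrkh lie opposite Oaz3, so without strand information some of these reads cannot be assigned.

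Transcripts for the enzymes that shape piRNA ends were scarce. Pnldc1 (chr17:12888729-12910230, minus strand), the exonuclease that trims piRNA 3′ ends in mice, had 19, 19 and 15 reads in metformin oocytes, against 26, 27 and 27 in controls. In CPM it had 1.81, 1.87 and 1.54 with metformin, against 2.73, 3.05 and 2.79 in controls, so every metformin library lay below every control. The log2 fold change was -0.71 (SE 0.291, interval -1.35 to -0.08), with an unadjusted p of 0.0315 and an adjusted p of 1.00 by edgeR, and it stayed between -0.77 and -0.63 with any library left out. Of its exon bases, 5.41% lie opposite another annotated gene. Henmt1, which methylates piRNA 3′ ends, averaged 0.768 FPKM with a log2 fold change of 0.07 (SE 0.356), and 14.7% of its exon bases lie opposite Gm9857. Mov10l1, the helicase that feeds piRNA precursors into processing, averaged 0.574 FPKM with a log2 fold change of -0.30 (SE 0.331). Pld6, the mitochondrial nuclease also known as Zucchini, averaged 0.414 FPKM with a log2 fold change of 0.14 (SE 0.433). Gpat2, a mitochondrial protein needed for piRNA production in mouse testis, had 7, 0 and 0 reads in metformin oocytes, against 0, 1 and 0 in controls.

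**Figure D3:**
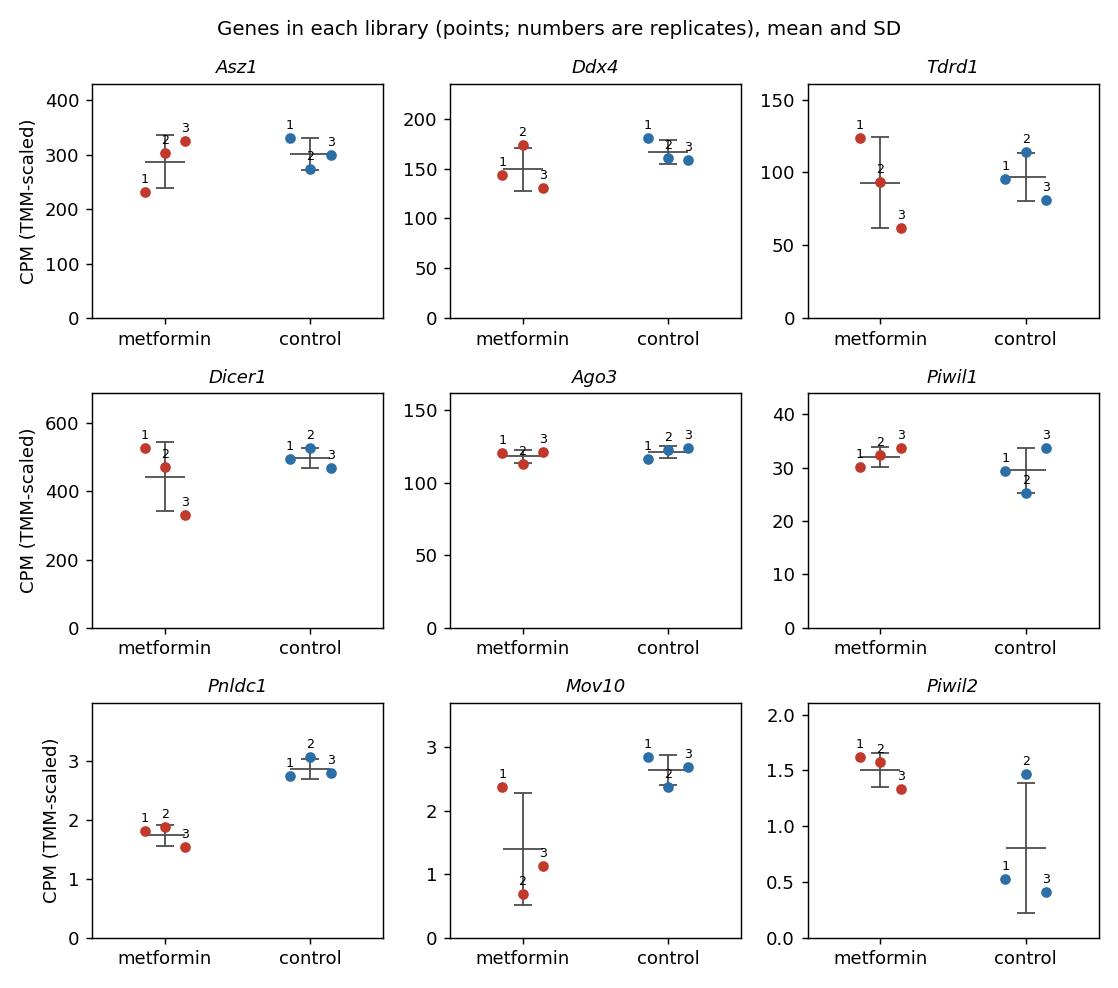
CPM of selected members in each library, metformin (red) left of control (blue) in every panel, with a bar for the mean and a line for 1 SD over 3 libraries; every axis starts at 0. The groups overlap for Asz1, Ddx4, Dicer1 and Ago3, while for Pnldc1 the 3 metformin libraries (1.54 to 1.87 CPM) lie below the 3 controls (2.73 to 3.05 CPM).

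The stretch before each gene's start was read from RefSeq (GRCm38.p6). Windows of 250 bases before the start were found for 27 of the 31 members; those of Ago2, Pnldc1, Piwil2 and Tdrd6 are not used here. The motif searched was the E-box CACGTG, a recognition sequence of basic helix-loop-helix factors, which reads the same on both strands and was chosen after these windows had been seen. It stood in at least 1 window of 7 of 17 piRNA-arm genes (41.2%; Ddx4, Tdrd1, Mael, Piwil1, Tdrd9, Mov10l1 and Pld6) and of 0 of 10 genes of the miRNA and siRNA arm, against 6.86% of 27025 genes. A match is a description of the letters and not a binding site. The 7 genes were spread over the order of levels, with Ddx4 at 42.3 FPKM and Pld6 at 0.414 FPKM, and Asz1, Tdrd12 and Gtsf1 were without it. Below are the windows of Asz1 (chr6:18109062-18109311, minus strand), Tdrd1 (chr19:56825959-56826208, plus strand), Mael (chr1:166238745-166238994, minus strand) and Tdrd9 (chr12:111971309-111971558, plus strand), 5′ to 3′ along the gene and ending at the base before the RefSeq start. They were picked to set the most abundant member, which lacks the motif, beside 3 nuage genes of high, middle and low level that hold it outside the GENCODE gene. Capitals mark the motif, which begins 11 bases before the start in Tdrd1, 223 bases before it in Mael, and 165 and 95 bases before it in Tdrd9.
Asz1: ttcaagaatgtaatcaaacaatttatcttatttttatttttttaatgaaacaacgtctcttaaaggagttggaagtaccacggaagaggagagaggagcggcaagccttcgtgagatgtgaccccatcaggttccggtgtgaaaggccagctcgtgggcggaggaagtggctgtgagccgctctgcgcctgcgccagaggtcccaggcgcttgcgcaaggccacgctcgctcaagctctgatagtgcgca
Tdrd1: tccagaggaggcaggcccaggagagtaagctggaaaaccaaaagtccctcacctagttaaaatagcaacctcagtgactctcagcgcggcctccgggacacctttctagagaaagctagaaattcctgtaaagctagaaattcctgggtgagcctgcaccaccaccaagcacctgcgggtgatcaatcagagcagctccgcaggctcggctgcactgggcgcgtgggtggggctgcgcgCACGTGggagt
Mael: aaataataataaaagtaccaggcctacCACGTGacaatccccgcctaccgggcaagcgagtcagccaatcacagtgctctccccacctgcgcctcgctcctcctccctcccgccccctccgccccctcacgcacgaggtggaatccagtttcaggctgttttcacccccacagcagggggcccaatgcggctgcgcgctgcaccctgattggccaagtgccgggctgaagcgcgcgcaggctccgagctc
Tdrd9: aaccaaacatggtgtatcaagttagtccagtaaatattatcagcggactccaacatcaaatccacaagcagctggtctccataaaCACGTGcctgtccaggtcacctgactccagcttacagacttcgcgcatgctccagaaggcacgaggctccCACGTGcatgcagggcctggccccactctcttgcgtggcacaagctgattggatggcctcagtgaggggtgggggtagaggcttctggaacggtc

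In the miRNA and siRNA arm, Dicer1 stood far above the genes of the steps before it. Per length, it exceeded Drosha by 6.29 to 9.02 times and Xpo5 by 12.4 to 18.8 times over the 6 libraries. Dicer1 had 528, 470 and 332 CPM in metformin oocytes, against 493, 528 and 469 CPM in controls. Metformin replicate 3 stood alone below the rest, and the log2 fold change was -0.16 (SE 0.169, interval -0.53 to 0.20). These counts are per gene and do not separate the oocyte-specific form from the full-length one. Drosha, the nuclease of the Microprocessor, had 33.1, 26.4 and 20.4 CPM in metformin oocytes, against 21.6, 31.0 and 21.7 CPM in controls. Its groups overlapped, with both extremes in metformin libraries. Xpo5, which exports microRNA precursors from the nucleus, had 15.3, 12.7 and 9.82 CPM in metformin oocytes, against 17.7, 15.6 and 11.1 CPM in controls. The groups overlapped here too, with a log2 fold change of -0.23 (SE 0.237).

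The genes for partners of these nucleases each averaged under 1 FPKM. Dgcr8, the RNA-binding partner of DROSHA, had 4, 2 and 2 reads in metformin oocytes, against 0, 1 and 0 in controls. The counts do not overlap, but all controls and most metformin libraries were under the floor of 3 reads. Dgcr8 had too few counts to be tested, and no fold change is given. Trmt2a lies opposite 10.7% of its exon bases. Tarbp2, a double-stranded RNA-binding partner of DICER, averaged 0.207 FPKM with a log2 fold change of 0.15 (SE 0.445), and 14.3% of its 50-base stretches also occur in pseudogenes. Prkra, a related DICER partner, had 0, 4 and 5 reads in metformin oocytes, against 0, 4 and 5 in controls. Per length, Dicer1 exceeded Tarbp2 by 82.2 to 208 times over the libraries by FPKM, and by 44.3 to 112 times by TPM computed on GENCODE exon unions.

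Ago3 was the main Argonaute transcript. It lies on the minus strand at chr4:126331704-126429556, next to Ago1 (chr4:126435012-126468583) and Ago4 (chr4:126489541-126533472), also on the minus strand, while Ago2 is at chr15:73095844-73184935. Its share of the summed FPKM of Ago1 to Ago4 was 80.3% to 85.4% over the 6 libraries. The share of Ago2, the Argonaute that cuts its targets in small RNA interference, was 12.2% to 16.0%. Ago3 exceeded Ago2 per length by 5.01 to 7.01 times, and at most 3.46% of the 50-base stretches of these genes occur in another gene. Ago3 had 121, 113 and 121 CPM in metformin oocytes, against 117, 122 and 124 CPM in controls. The groups lay within a narrow band, and the interval of its log2 fold change, -0.31 to 0.25 around -0.03 (SE 0.128), was the narrowest of the 24 tested members. Ago2 had 18.7, 18.6 and 14.2 CPM in metformin oocytes, against 15.1, 18.5 and 15.1 CPM in controls, with a log2 fold change of 0.08 (SE 0.194). Metformin libraries held both ends of that range. Ago4 had 1.71, 1.77 and 0.92 CPM in metformin oocytes, against 0.42, 1.02 and 1.55 CPM in controls. Its groups overlapped, and the interval of its log2 fold change ran from -0.51 to 1.63 around 0.56 (SE 0.489). That value was 0.19 without control replicate 1 and 1.03 without control replicate 3. Ago1 had 4, 5 and 7 reads in metformin oocytes, against 13, 3 and 13 in controls, and was too low to be tested.

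**Figure D4:**
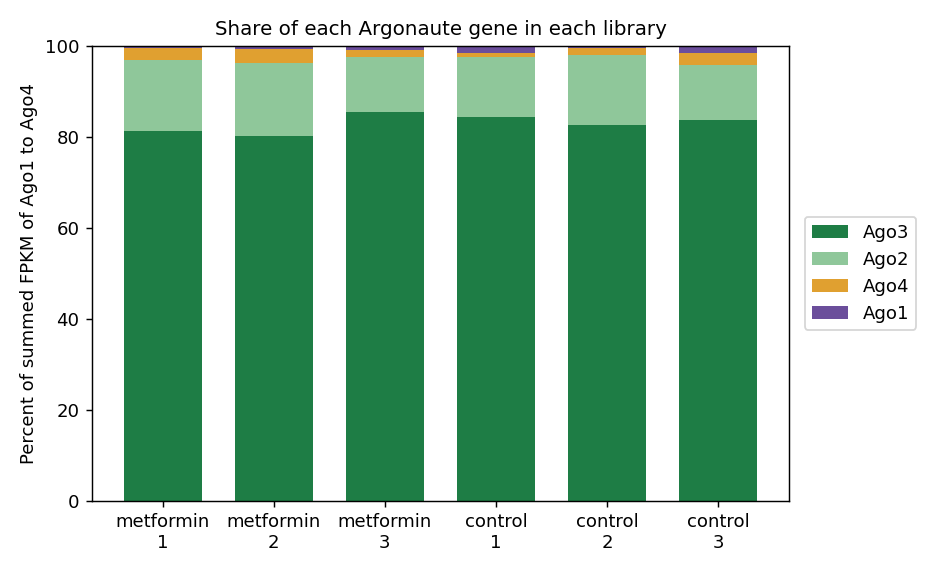
Share of each Argonaute gene in the summed FPKM of Ago1 to Ago4, in percent, for each metformin library (left) and control library (right). Ago3 takes 80.3% to 85.4% and Ago2 12.2% to 16.0% in every library of both groups.

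Mov10, an RNA helicase that associates with Argonautes and restrains LINE-1 transposons in cultured cells, was the member with the lowest fitted value. It had 2.38, 0.69 and 1.13 CPM in metformin oocytes, against 2.84, 2.37 and 2.69 CPM in controls. Metformin replicate 1 lay just above the lowest control, and the other metformin libraries were below all controls. The log2 fold change was -0.90 (SE 0.418, interval -1.82 to 0.01), with an unadjusted p of 0.0525 and an adjusted p of 1.00 by edgeR. It was -1.53 without metformin replicate 1 and -0.58 at the other end of the range with a library left out. Counts behind these values were 25, 7 and 11 with metformin, against 27, 21 and 26 in controls, and 5.22% of its 50-base stretches also occur in Gm7357.

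Summed over its 20 genes, the piRNA arm had 953, 915 and 859 CPM in metformin oocytes, against 1007, 971 and 874 CPM in controls. The 11 genes of the miRNA and siRNA arm summed to 724, 646 and 502 CPM in metformin oocytes, against 671, 722 and 648 CPM in controls. In both arms the groups overlapped, and the lowest library of each group was replicate 3. Among single genes, 13 of the 24 tested members (54.2%) were lowest in replicate 3 of both groups, compared with 17.2% of all genes tested. Metformin replicate 3 was the lowest metformin library for 17 of the 24 members (70.8%), compared with 36.0% of all genes, and control replicate 3 the lowest control for 15 (62.5%), compared with 35.3%. These libraries also had the lowest TMM scaling factors, 0.925 for metformin replicate 3 and 0.959 for control replicate 3. For the same count and library total, a lower factor gives a higher CPM. The part of the scaling in the members' levels was not tested. Among all genes, the share lowest in replicate 3 of both groups was 12.9%, 17.7% and 21.1% among short, middle and long genes (3 equal groups by exon length). For the members it was 2 of 3, 7 of 12 and 4 of 9 in the same groups by length. The members' median log2 fold change was -0.16 without metformin replicate 1 and 0.11 without metformin replicate 3.

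Beyond the 31 genes, 66 other genes of the same pathways were listed, of which 65 were in the table and 61 were tested. By edgeR 0 of the 61 passed an adjusted p of 0.05, by DESeq2 and limma-voom 0, and 0 had an unadjusted p under 0.05 by edgeR. Metformin libraries did not overlap controls for 4 of them (Limd1, Cbx1, Ehmt2 and Samhd1), against 5.63% of all genes. The fitted value was higher with metformin for 30 and lower for 31, with a median log2 fold change of -0.00122.

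Among 14 other piRNA factors in the table, 13 were tested, with 7 fitted higher and 6 lower. The most abundant per length were Stk31, a Tudor-domain kinase-like protein, at 28.4 FPKM and Rnf17, a Tudor protein of male germ cells, at 27.5 FPKM, close to Dicer1 and Gtsf1 in level. The smallest unadjusted p belonged to Fkbp6, a chaperone cofactor of PIWI loading in mouse testis (log2 fold change 0.33, SE 0.251), and Spocd1, which links piRNAs to DNA methylation in fetal male germ cells (0.21, SE 0.209). Among 18 tested microRNA factors, 9 were fitted higher and 9 lower. Xrn2, a nuclear exonuclease, and the helicase Ddx5 were the most abundant at 35.3 and 30.2 FPKM, while Dis3l2, which degrades uridylated RNA, and the RNA-editing enzyme Adarb1 had fitted values of -0.35 (SE 0.253) and -0.35 (SE 0.308) on the log2 scale.

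The most abundant chromatin genes of transposon silencing stood above all 31 members. Mphosph8, a subunit of the HUSH silencing complex, averaged 198 FPKM, and Dnmt1, the maintenance DNA methyltransferase, 175 FPKM over the 6 libraries, where Asz1 averaged 69.3. Of 19 tested chromatin genes, 9 were fitted higher and 10 lower. Ehmt2, a histone H3 lysine methyltransferase, had 16, 20 and 12 reads with metformin, against 10, 7 and 9 in controls (log2 fold change 0.76, SE 0.389). Cbx1, a heterochromatin protein, had 138, 137 and 151 CPM with metformin, against 133, 124 and 104 CPM in controls (log2 fold change 0.24, SE 0.141). For both, every metformin library lay above every control, and the adjusted p was 1.00 by edgeR. Of 7 tested nucleic acid restriction genes, 2 were fitted higher and 5 lower. Samhd1, which depletes deoxynucleotides and restrains retroelements, had 80.75, 78.98 and 77.98 CPM with metformin, against 107, 85.7 and 89.2 CPM in controls, without overlap (log2 fold change -0.25, SE 0.143, adjusted p 1.00 by edgeR). Rnaseh2a and Rnaseh2b, subunits of ribonuclease H2, differed by -0.74 (SE 0.454) and 0.08 (SE 0.267) on the log2 scale. Trex1 had 0 counts in every library.

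Of the genes known as targets of endogenous small interfering RNAs in mouse oocytes, all 5 listed were tested, with 3 fitted higher and 2 lower. Kif4, a chromosome-associated kinesin, averaged 43.3 FPKM and had 315, 234 and 203 CPM in metformin oocytes, against 265, 246 and 217.5 CPM in controls. Pdzd11 ranged from 7.80 to 14.9 FPKM and had 52.3, 46.0 and 32.8 CPM in metformin oocytes, against 48.8, 56.2 and 41.3 CPM in controls. Both overlapped between groups and were lowest in replicate 3 of each group, as 17.2% of all genes tested were. Of the other targets listed, Rangap1 was also lowest there, while Ppp4r1 and Hdac1 were not lowest in replicate 3 of both groups. Rangap1, a regulator of nuclear transport, had 24, 19 and 8 reads in metformin oocytes, against 20, 13 and 8 in controls.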

How the data were processed

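Poly(A)-primed cDNA of 6 oocyte samples was sequenced with the SMART-Seq HT kit, per the labels' protocols; the kit keeps neither strand nor molecular identifiers, so depth and floors cover counting error only. Per the submitters' processing notes, the tools were CASAVA 1.8 and TopHat2 2.0.6 with build mm10. For the counting program and the annotation, the sources used here give no name. Per the file headers, the authors deposited a raw count and an FPKM value per gene and library. Counts were used for tests and CPM, and deposited FPKM for levels between genes. The lengths implied by FPKM were 1.02 to 1.85 times the GENCODE M21 exon unions (median 1.23, 13 members with at least 100 counts in every library). They are therefore not lengths of GENCODE M21 transcripts, and the sources used here do not say how they were set.

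Symbols were found for 55141 of 55487 identifiers. Groups were compared with the quasi-likelihood test of edgeR (version 4.0.16; limma 3.58.1, R 4.3.3; robust, TMM, filterByExpr minimum count 10, group only, Benjamini-Hochberg, threshold 0.05) on all 6 libraries, checked on simulated data. Library totals were 8622281 to 10588292 counts. Alternatives were RLE factors, no filter, DESeq2 1.42.0, limma-voom, a replicate block, a non-robust fit, each library left out, and TPM on exon unions. The members, gene lists and tests were chosen with earlier results of these data known. By rule, values in every library are given for the 3 most abundant members of each member list, members with an unadjusted p under 0.05 or no overlap, and the paralog families, and other lists are represented by their 2 genes of smallest p and 2 of highest level; per-library values of other genes were added after they were seen. Gdf9, an oocyte growth factor and reference level, had 7260 ± 981 CPM with metformin and 7194 ± 181 CPM in controls (SD, n = 3 each).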

Additional observations from a re-analysis of the deposited data

How the results depend on the processing

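Under every alternative run, 0 members and 0 other pathway genes were called. The count over all genes was 5, with 9 by DESeq2, 7 with the replicate block, 6 without the filter, 5 with RLE, 4 by limma-voom, 4 with the non-robust fit, and 5 to 12 with 1 library left out; the cause of the differences was not tested. Deviations from the group mean correlated weakly between libraries of equal replicate number (0.144, 0.0441 and 0.2004), yet each library correlated best with its own number. Correlations of the other pairs ran from -0.171 to 0.0316. Deviations from a group mean cancel within the group by construction, so these correlations are not independent of each other. Whether equal numbers mark a pair or a shared batch was not tested, and the labels do not say. Of 144 member fold changes recomputed with all libraries, 3 had the other sign: Mael at -0.001987 without the filter, and Tdrd7 at -0.0579 by limma-voom and -0.0271 with the replicate block. Of 144 with a library left out, 22 had the other sign; the log2 ranges were -0.169 to 0.0637 for Asz1, -0.18 to 0.13 for Tdrd12, -0.31 to 0.00591 for Dicer1, -0.32 to 0.16 for Tdrd1, -0.11 to 0.16 for Mael, -0.39 to 0.13 for Tdrd5, -0.0805 to 0.299 for Drosha, -0.37 to 0.34 for Tdrd7, -0.30 to 0.37 for Henmt1, -0.12 to 0.43 for Pld6 and -0.26 to 0.48 for Tarbp2. By TPM on exon unions, 1 member (Henmt1) moved more than 2 places in the order of levels, by 3. Gtsf1 and Dicer1 changed places in that order. At this depth the intervals of 7 low members (Pnldc1, Mov10l1, Pld6, Mov10, Tarbp2, Piwil2 and Ago4) reach past a 2-fold difference.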

Other observations

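In 3 other pathway genes, chosen after their values were seen, 1 or 2 libraries stood far from the rest. Akap1, a mitochondrial anchor protein for RNA and kinase A, had 829, 719 and 106 counts in metformin oocytes, against 721, 642 and 164 in controls, so that replicate 3 of both groups was low. Lin28a, which blocks processing of let-7 microRNA precursors, had 263, 13 and 161 counts with metformin, against 163, 161 and 191 in controls. Limd1, a protein that binds Argonautes, had 572, 497 and 505 counts with metformin, against 419, 14 and 465 in controls. Each of these genes had an adjusted p of 1.00 by edgeR.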
